A study of Mus musculus with 2 samples.

Results

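The genes followed here were 10 transcription factors known from effector regulatory T cells (Tregs), of 32285 features in the count tables. They were Prdm1, Maf, Gata3, Tbx21, Rora, Irf4, Batf, Id2, Bhlhe40 and Tox2, chosen by symbol, and all 10 were found. Their values came from droplet barcodes in which 300 genes or more were detected and mitochondrial genes took no more than 5% of UMIs (unique molecular identifiers, each marking 1 captured transcript). Klrg1 and Cxcr3, a lectin-like receptor and a chemokine receptor found on subsets of effector Tregs, were read in the same barcodes.

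The data were droplet single-cell RNA sequencing of CD4+YFP+7AAD- cells sorted from the spleens of 7-day-old C57BL/6J mice. The WT library came from mice that carry the Foxp3-driven YFP-Cre allele without floxed Zfp335, and the KO library from Zfp335fl/flFoxp3-Cre mice, in which the same Cre acts on both floxed copies of Zfp335, a zinc finger gene regulator. Cre expressed from Foxp3 acts from the time Foxp3 is switched on, so resting as well as effector Tregs of these mice are targeted. There was 1 library per genotype, and how many mice went into each was not stated, so no difference between genotypes could be tested, and all 95% intervals below cover counting error only.

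The filters kept 8053 of 14524 WT barcodes (median 5061 UMIs) and 13767 of 18134 KO barcodes (median 2713 UMIs), and 29 barcode sequences occurred in both kept sets. Clustering without the 10 factors, Klrg1 and Cxcr3 gave 19 clusters, of which 14 were T-lineage, with 7518 WT and 13027 KO barcodes. Fixed markers named resting Treg-like barcodes (2611 WT, 5211 KO), effector Treg-like barcodes (2505 WT, 152 KO), 2 activated Treg-like clusters, S phase-like barcodes (582 WT, 764 KO) and mitosis-like barcodes (73 WT, 375 KO). Unnamed T-lineage clusters, which were shallow or led by globin, granule, macrophage or stress genes, held 1185 WT and 5371 KO barcodes. Zfp335 was at 8.18 CPM (counts per 1000000 UMIs) in WT and 0.781 CPM in KO T-lineage barcodes, the direction the labels state. Foxp3, the defining Treg factor, was at 40.6 and 44.4 CPM.

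Resting Tregs circulate through lymphoid organs, and effector Tregs arise from them after antigen receptor signals and settle in tissues. The receptor signal induces Irf4, Batf and Bhlhe40, which act early. Irf4 and Batf bind composite DNA elements together, and Prdm1, which encodes Blimp-1, follows as a repressor that promotes Il10. Maf, Gata3, Tbx21 (T-bet) and Rora are lineage factors of helper T cells that Tregs also use to suppress the matching type of response. Id2 holds E proteins off DNA, and Tox2 is an HMG-box protein best known from follicular helper and exhausted T cells. The tables count 3′ tags, so levels are compared below between libraries and states within a gene, and not between genes.

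RefSeq promoter sequences (GRCm38.p6) were looked up for the factors, and 8 of 10 had an entry; Maf and Bhlhe40 had none. The 250 bases before the start site are printed for Prdm1 and Rora, which were lower in KO, and for Gata3, which was not, so that the windows can be read beside the results. The RefSeq starts of Prdm1 and Gata3 lie inside the longer gene spans given below. Prdm1 lies on the minus strand with its window at chr10:44458749-44458998, Rora on the plus strand at chr9:68653536-68653785, and Gata3 on the minus strand at chr2:9878601-9878850. Each is written 5′ to 3′, and capitals mark any match to 6 short motifs of factor families in the list.
Prdm1: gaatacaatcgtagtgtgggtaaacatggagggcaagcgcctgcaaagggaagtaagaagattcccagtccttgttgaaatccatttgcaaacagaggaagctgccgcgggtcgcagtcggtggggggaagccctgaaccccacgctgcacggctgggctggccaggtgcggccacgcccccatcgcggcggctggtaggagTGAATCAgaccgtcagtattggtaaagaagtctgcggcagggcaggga
Rora: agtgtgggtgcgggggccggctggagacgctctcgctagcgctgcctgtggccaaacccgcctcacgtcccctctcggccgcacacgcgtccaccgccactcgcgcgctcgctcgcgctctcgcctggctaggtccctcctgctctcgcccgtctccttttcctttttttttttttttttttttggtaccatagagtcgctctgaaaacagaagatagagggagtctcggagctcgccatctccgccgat
Gata3: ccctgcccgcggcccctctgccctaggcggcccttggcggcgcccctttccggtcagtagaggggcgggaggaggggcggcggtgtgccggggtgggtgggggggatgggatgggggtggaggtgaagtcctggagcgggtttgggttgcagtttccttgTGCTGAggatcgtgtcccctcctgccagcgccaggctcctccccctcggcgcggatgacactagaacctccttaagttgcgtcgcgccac
The motifs were searched on both strands. TGANTCA stands for AP-1 and Batf. For Bhlhe40 the E-box CACGTG was used. GATA factors are represented by AGATAA. For T-box factors such as Tbx21 the letters were AGGTGTGA. The site of ROR factors was written AGGTCA. The last motif, for Maf, was TGCTGA. The Prdm1 window held 1 TGANTCA, which was found in 6.75% of 32851 promoter windows of the same length. The Gata3 window held 1 TGCTGA, found in 16.1% of windows, and the Rora window held no match. The Batf window held 1 AGATAA, found in 9.99% of windows. The Tbx21, Irf4 and Id2 windows and all 5 Tox2 start sites held none of the 6 motifs. The E-box letters were found in 6.02%, the T-box letters in 1.12% and the ROR letters in 14.02% of windows. A match here is a match of letters only.

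In WT, the level of 8 of the 10 factors was at least 2-fold higher in effector than in resting Treg-like barcodes, against 6.21% of 10650 genes with at least 50 UMIs. The median log2 ratio of the 10 was 1.57, with 0.5 UMIs added to each sum, against -0.04 over all genes. The 10 genes were left out of clustering and naming, but their partners in the effector programme were not, so the ratios describe the class and do not test it. The remaining pair, Id2 and Gata3, was 1.81-fold (1.57 to 2.11) and 1.16-fold (1.08 to 1.25) higher. Klrg1 was 14.9-fold (11.1 to 20.6) and Cxcr3 9.48-fold (7.80 to 11.6) higher.

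Tox2 (chr2:163203125-163324170, plus strand) was among the factors with the widest span. Its WT level was 1.98 CPM (1.21 to 3.06) in resting and 17.4 CPM (15.7 to 19.3) in effector barcodes, 8.79-fold higher (5.61 to 14.6). Tbx21 (chr11:97098071-97115331, minus strand), the master factor of type I helper responses, went from 1.88 to 10.2 CPM, 5.40-fold (3.38 to 9.15). Both were nearly silent in resting barcodes and low in count in effector barcodes too, with 370 and 216 UMIs in 2505 barcodes. Sizes at this low resting count moved with the clustering: at resolution 1.2 the log2 ratio was 3.26 for Tbx21, against 2.43 here.

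Prdm1 (chr10:44437177-44528501, minus strand) went from 2.67 to 11.7 CPM, 4.36-fold (2.93 to 6.76), and the log2 ratio, 2.13, was 3.30 at resolution 1.2. Rora (chr9:68653786-69388246, plus strand), an orphan nuclear receptor, went from 25.3 to 84.4 CPM, 3.33-fold (2.92 to 3.81). Maf (chr8:115682942-115707794, minus strand), a bZIP factor that drives Il10 and other effector genes in Tregs, went from 37.4 to 122 CPM, 3.27-fold (2.93 to 3.65). For each of these the effector interval lay wholly above the resting interval. The share of WT UMIs that came from effector barcodes was 62.3% for Prdm1, 61.9% for Rora, 62.7% for Maf and 67.4% for Tox2.

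**Figure D1:**
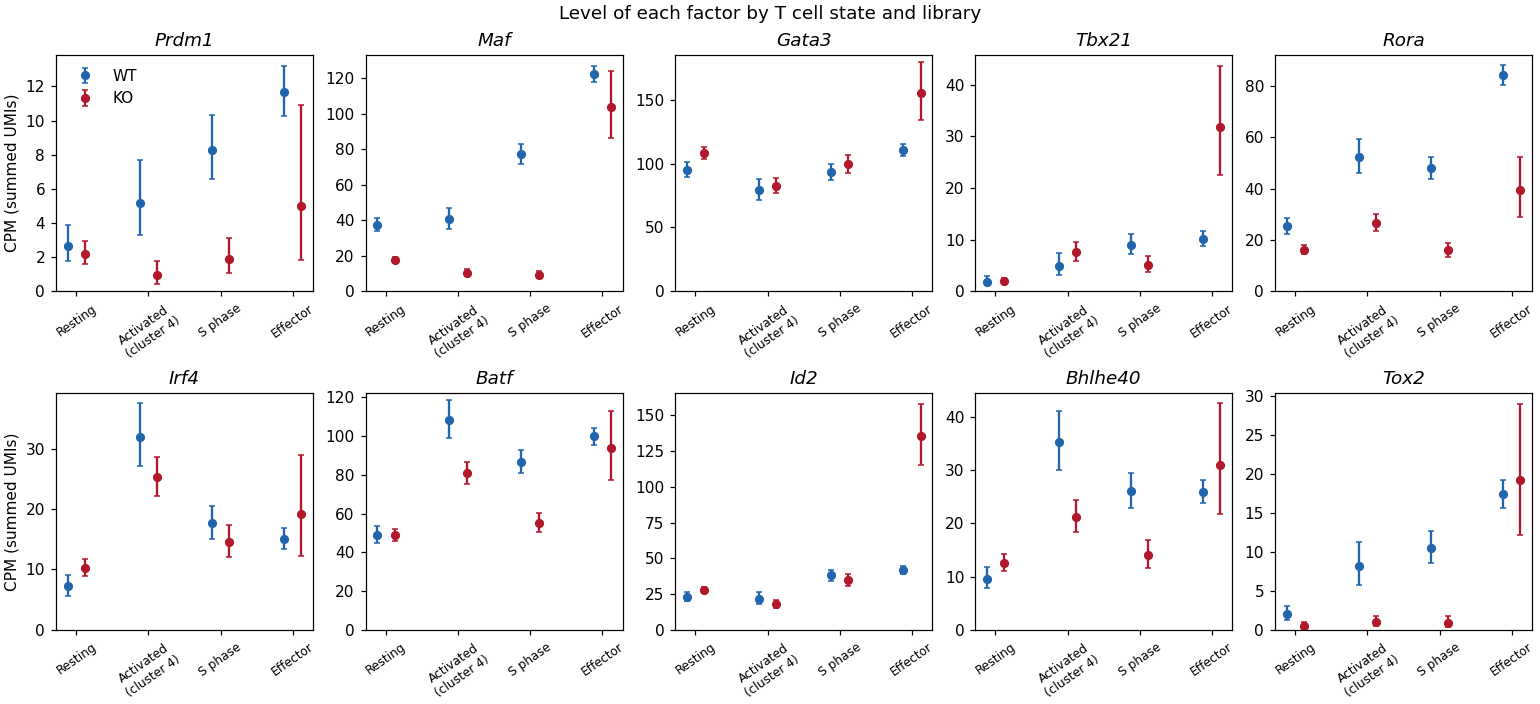
Level of each factor as CPM of summed UMIs (y axis, starting at 0, a scale per gene) in resting, activated cluster 4, S phase-like and effector barcodes of WT (blue) and KO (red), with exact 95% Poisson intervals as bars. Maf in resting barcodes was at 37.4 CPM in WT and 17.6 CPM in KO, whereas the Gata3 levels of both libraries lay close together outside the effector class.

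The activation-linked factors had another order. The larger activated Treg-like cluster, led by Phlda3 and Penk and with the costimulatory receptor gene Tnfrsf9 among its 10 leading genes, is called cluster 4 here. The smaller one was led by the immediate early genes Egr3, Nr4a3 and Egr2 and is called cluster 16, and both were set against cluster 1, the larger resting cluster. In WT, 5 of 9 factors with at least 50 UMIs were at least 2-fold higher in cluster 4 than in cluster 1, against 9.57% of 9433 genes.

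Irf4 (chr13:30749226-30766976, plus strand) was at 6.92 CPM in cluster 1, 32.0 CPM in cluster 4 and 51.1 CPM in cluster 16 of WT. It was thus 4.62-fold (3.44 to 6.26) and 7.38-fold (4.84 to 11.1) higher in the activated clusters, more than its 2.08-fold (1.61 to 2.72) in effector over resting barcodes, which was under 2-fold at the other 2 clustering resolutions. Bhlhe40 (chr6:108660629-108666925, plus strand) was at 9.92, 35.2 and 32.7 CPM in the same clusters, 3.55-fold (2.74 to 4.62) and 3.30-fold (2.04 to 5.17) higher, against 2.69-fold (2.17 to 3.38) in effector over resting barcodes. Batf (chr12:85686669-85709087, plus strand) was at 49.2, 108 and 91.7 CPM, 2.20-fold (1.94 to 2.50) and 1.86-fold (1.43 to 2.40) higher, against 2.04-fold (1.85 to 2.25). For Irf4 both activated intervals lay above the effector interval, whereas for Bhlhe40 and Batf the intervals overlapped. The other 2 past 2-fold in cluster 4 were Tox2, 4.16-fold (2.34 to 7.63), and Rora, 2.03-fold (1.69 to 2.43).

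Maf separated the activated clusters from each other. Its WT level was 36.9 CPM in cluster 1, 40.6 CPM in cluster 4 and 121 CPM in cluster 16. The ratio to cluster 1 was 1.10 (0.917 to 1.32) in cluster 4 and 3.27 (2.57 to 4.12) in cluster 16, the second being near the effector level. Cluster 16 held 124 WT barcodes, so the latter value rests on 92 UMIs.

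Id2 (chr12:25093799-25097140, minus strand) was not higher in the activated clusters: it was at 22.9, 21.7 and 17.0 CPM in clusters 1, 4 and 16 of WT. Gata3 (chr2:9857078-9890034, minus strand), the master factor of type II helper responses, was the flattest of the 10 across states. Its WT level was 95.2 CPM (89.3 to 101) in resting, 93.5 CPM (87.6 to 99.8) in S phase-like and 111 CPM (106 to 115) in effector barcodes. In cluster 4 it was 79.5 CPM, lower than in cluster 1 by a ratio of 0.828 (0.732 to 0.935).

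**Figure D2:**
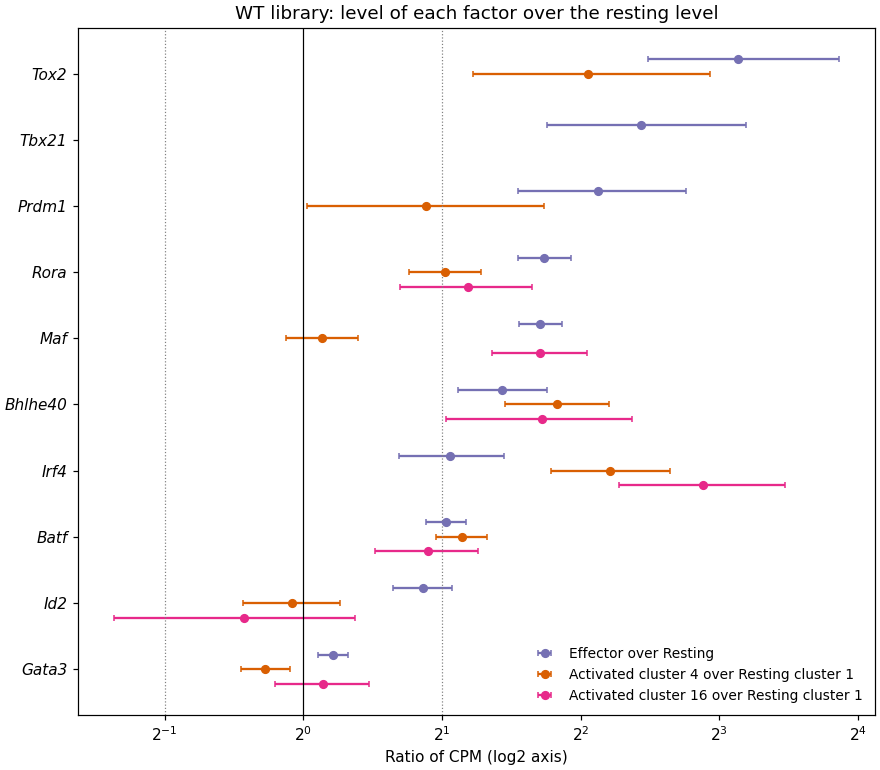
WT ratio of CPM to the resting level (x axis, log2 scale) for each factor, with exact conditional 95% intervals; dotted lines mark 2-fold. Points stand for effector over resting barcodes, and for activated clusters 4 and 16 over resting cluster 1, where the 2 sums together held at least 50 UMIs. Irf4 lies farther right in the activated clusters than in effector barcodes, and Gata3 lies near 1 in all 3.

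Within the effector class, cluster 9 was led by the granzyme genes Gzmb and Gzma and cluster 3 by S100a4 and Ccr2. Prdm1 was 1.82-fold (1.41 to 2.35), Tbx21 1.57-fold (1.19 to 2.07) and Id2 1.48-fold (1.30 to 1.70) higher in cluster 9 than in cluster 3 of WT. Cxcr3 was 1.58-fold (1.45 to 1.72) higher there as well. Tox2 was lower, at a ratio of 0.683 (0.538 to 0.861), and so was Maf, at 0.857 (0.788 to 0.931). For Gata3, Rora, Irf4, Batf and Bhlhe40 the interval of the ratio included 1. Foxp3 was also lower in cluster 9, at 21.5 against 50.01 CPM, a ratio of 0.429 (0.360 to 0.510), and the part of cells without Foxp3 in these differences was not tested.

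Resting values were read against cells that should lack the factors, since free RNA in droplets gives UMIs in any cell. After each barcode was thinned to 1000 UMIs, 0.160% of WT resting barcodes had a Tbx21 UMI, against 0.417% of 240 erythroid-like barcodes, red cell precursors that should lack it. The unthinned medians were 3735 UMIs in resting and 4211 UMIs in erythroid-like barcodes. Resting Tbx21 did not exceed the erythroid-like share, and neither did resting Klrg1, at 0.399% against 0.417%. The latter share is 1 barcode with a UMI, so it places the level of free RNA loosely. The erythroid-like clusters also held 20.8% and 25.4% of the average T cell receptor and CD3 level. Whether the resting UMIs of Tbx21 and Klrg1 are free RNA was not tested. Maf lay above the erythroid-like share, with 4.11% of resting and 1.25% of erythroid-like barcodes, and Gata3 even more, with 8.46% and 0.417%.

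Thinned to 2000 UMIs, a WT effector barcode held UMIs of 0.928 of the 10 factors on average, a WT resting barcode 0.451 and a WT erythroid-like barcode 0.0789. At least 2 factors were found in 23.9% of WT effector barcodes and 7.07% of WT resting barcodes. KO resting barcodes gave 0.435 factors on average and 6.34% with at least 2.

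Over all T-lineage barcodes, 4 of the 10 factors were at least 2-fold lower in KO than in WT, against 5.54% of 12224 genes with at least 50 UMIs. None was at least 2-fold higher, against 2.48% of genes. The median log2 ratio of the 10 was -0.71, against -0.07 over all genes. In these sums a smaller share of effector barcodes and less RNA of a factor per barcode cannot be told apart. Values within states therefore follow, and the mix of barcodes within a state can still differ between the libraries.

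Tox2 was lowest in KO relative to WT, at 1.09 CPM (0.823 to 1.41) against 11.3 CPM (10.4 to 12.3), a ratio of 0.0961 (0.0718 to 0.126). Maf was at 15.99 CPM (14.9 to 17.1) in KO against 85.4 CPM (82.9 to 88.1), a ratio of 0.187 (0.174 to 0.202). Prdm1 was at 2.04 and 8.20 CPM, a ratio of 0.249 (0.199 to 0.309). Rora was at 18.7 and 59.8 CPM, a ratio of 0.313 (0.291 to 0.337). Klrg1 and Cxcr3 were lower still, with ratios of 0.0213 (0.0154 to 0.0287) and 0.0692 (0.0607 to 0.0787).

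Smaller differences were found for the induced factors and Tbx21. The ratio was 0.581 (0.491 to 0.688) for Tbx21, 0.638 (0.581 to 0.700) for Bhlhe40, 0.699 (0.668 to 0.733) for Batf and 0.868 (0.810 to 0.930) for Id2. Irf4 was at 15.1 CPM in KO and 16.3 CPM in WT, and its ratio of 0.929 (0.841 to 1.03) had an interval that included 1. Gata3 was at 98.7 and 99.4 CPM, and its ratio of 0.992 (0.954 to 1.03) was the nearest to 1.

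**Figure D3:**
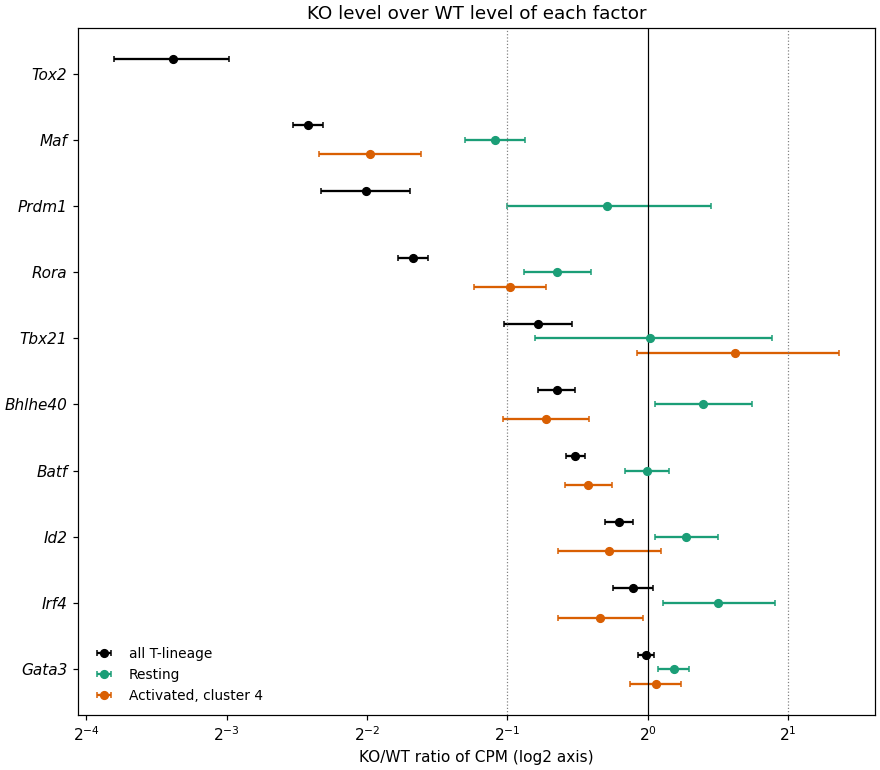
KO level over WT level of each factor (x axis, log2 scale) over all T-lineage barcodes (black), resting barcodes (green) and activated cluster 4 (orange), with exact conditional 95% intervals; dotted lines mark 2-fold and sums under 50 UMIs are not drawn. Maf lies left of 1 in all 3 sets, at 0.187, 0.470 and 0.254, and Gata3 stays near 1.

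Within resting barcodes Maf was the single factor at least 2-fold lower in KO, of 9 with at least 50 UMIs, against 2.76% of 10412 genes. It was at 17.6 CPM (15.9 to 19.5) in KO against 37.4 CPM (33.7 to 41.4), a ratio of 0.470 (0.406 to 0.544). Rora was at 16.2 and 25.3 CPM, a ratio of 0.640 (0.543 to 0.756). Thinned to 1000 UMIs, 1.79% of KO and 4.11% of WT resting barcodes had a Maf UMI, against 0.413% and 1.25% of erythroid-like barcodes (unthinned KO medians 3558 and 2437 UMIs). For Rora the thinned shares lay closer together, at 1.60% in KO and 1.88% in WT, against 0.826% and 0.833%. The erythroid-like level of Maf was 5.99 CPM in KO and 8.97 CPM in WT, higher in WT but with overlapping intervals (3.35 to 9.89 and 5.75 to 13.3). How much of the resting difference free RNA accounts for was not tested.

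Other factors leaned the opposite way in resting barcodes, none of them by 2-fold, against 0.759% of genes at least 2-fold higher. Irf4 was at 10.2 CPM (KO) and 7.23 CPM (WT), a ratio of 1.42 (1.08 to 1.87). Bhlhe40 was at 12.6 and 9.60 CPM, a ratio of 1.31 (1.04 to 1.67). Id2 was at 27.9 and 23.1 CPM, a ratio of 1.21 (1.04 to 1.41), and Gata3 at 108 and 95.2 CPM, a ratio of 1.14 (1.05 to 1.23). For Irf4 and Bhlhe40 the resting shares lay near the erythroid-like ones. Thinned to 1000 UMIs, 0.788% and 1.12% of KO resting barcodes had a UMI, against 0.413% and 1.03% of KO erythroid-like barcodes. Batf was at 48.9 and 49.0 CPM, with a ratio of 0.998 (0.896 to 1.11). Prdm1 and Tbx21 had 73 and 59 UMIs in all, and their intervals, 0.498 to 1.37 and 0.572 to 1.85, are too wide to place them. Tox2 had 20 WT and 11 KO UMIs and was under the minimum. The resting class of KO held 1185 barcodes of a cluster led by the interferon-stimulated genes Ifit3 and Ifit1, to which WT gave 90. In cluster 1 alone the ratio was 1.27 (0.941 to 1.73) for Irf4, with an interval that included 1, and 0.450 (0.382 to 0.530) for Maf.

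In activated cluster 4, which held 438 WT and 1103 KO barcodes, Maf was again the single factor at least 2-fold lower, of 8 with at least 50 UMIs, against 2.45% of 9128 genes. It was at 10.3 CPM (8.38 to 12.6) in KO against 40.6 CPM (35.02 to 46.8), a ratio of 0.254 (0.197 to 0.326). Rora, at 26.5 and 52.4 CPM, had a ratio of 0.506 (0.423 to 0.606), just short of 2-fold. Bhlhe40, Batf and Irf4 were lower as well, with ratios of 0.604 (0.489 to 0.747), 0.746 (0.666 to 0.836) and 0.790 (0.641 to 0.976). Gata3 had a ratio of 1.04 (0.917 to 1.18), and Id2 one of 0.825 (0.641 to 1.07). Tbx21, at 7.58 and 4.94 CPM, had a ratio of 1.53 (0.948 to 2.57), an interval that included 1. The cluster 4 barcodes of the 2 libraries also differed in effector genes: S100a4 was at 2.84 CPM in KO and 116 CPM in WT. The ratio was 0.0932 (0.0538 to 0.153) for Cxcr3 and 0.108 (0.0460 to 0.225) for Klrg1. The part of a different mix of barcodes in the cluster 4 ratios was not tested.

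The activated over resting ratios were also taken within KO. Of 8 factors with at least 50 UMIs, 2 were at least 2-fold higher in cluster 4 than in cluster 1 of KO, against 7.59% of 10024 genes. They were Tbx21, 7.82-fold (4.44 to 14.7), and Irf4, 2.88-fold (2.32 to 3.58). The Tbx21 ratio rests on 15 UMIs in KO cluster 1, or 0.970 CPM, and the whole KO resting class was at 1.90 CPM. In WT the Tbx21 sums, 23 UMIs in cluster 4 and 18 UMIs in cluster 1, were under the minimum, so the libraries were not compared for it. Bhlhe40 was 1.65-fold (1.35 to 2.02) and Batf 1.76-fold (1.59 to 1.96) higher in KO. The WT values of Irf4, Bhlhe40 and Batf, given above, were larger in cluster 4, but the intervals of the libraries overlapped for Irf4 and Batf. In the 51 KO barcodes of cluster 16 the ratio to cluster 1 was 6.58 (3.42 to 11.6) for Irf4, 3.46 (1.63 to 6.50) for Bhlhe40 and 2.43 (1.56 to 3.61) for Batf, on 13, 10 and 25 UMIs, with intervals that overlapped those of WT. Maf was lower in cluster 4 than in cluster 1 of KO, at a ratio of 0.621 (0.487 to 0.787). The difference between the libraries in these ratios has no replicate behind it.

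In S phase-like barcodes 4 of 10 factors were at least 2-fold lower in KO, against 3.66% of 9469 genes. Tox2 had a ratio of 0.0801 (0.0314 to 0.171), Maf 0.119 (0.0929 to 0.151), Prdm1 0.231 (0.126 to 0.397) and Rora 0.334 (0.274 to 0.406), and Gata3 had 1.06 (0.967 to 1.17). These are the same genes as over all T-lineage barcodes. The S phase-like barcodes of the 2 libraries were not alike in kind: at a finer clustering, 410 of the 582 WT but 9 of the 764 KO barcodes fell in a cluster whose leading genes included Gzma and Gzmb. In the S phase ratios, state and level cannot be told apart.

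The KO effector class held 152 barcodes. Maf was at 104 CPM (86.4 to 124) in KO against 122 CPM, a ratio of 0.849 (0.703 to 1.02). Tox2, at 19.3 and 17.4 CPM, Batf, at 93.8 and 99.8 CPM, and Cxcr3, at 98.8 and 100 CPM, also had intervals that included 1. The 23 Tox2 UMIs of KO came from 8 barcodes, or 5.26%, whereas 269 WT barcodes, or 10.7%, had a Tox2 UMI. Rora was lower, at 39.4 and 84.4 CPM, a ratio of 0.466 (0.341 to 0.623). Prdm1 was lower on 6 KO UMIs, a ratio of 0.431 (0.157 to 0.951). Klrg1, at 5.86 and 66.5 CPM, was lower by a ratio of 0.0881 (0.0353 to 0.182), so KO effector barcodes held Cxcr3 with little Klrg1.

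Id2, Tbx21 and Gata3 were higher in KO effector barcodes. Id2 was at 136 CPM in KO against 41.9 CPM, a ratio of 3.24 (2.72 to 3.84), Tbx21 at 31.8 and 10.2 CPM, a ratio of 3.13 (2.16 to 4.44), and Gata3 at 156 and 111 CPM, a ratio of 1.41 (1.21 to 1.64). Markers of cytotoxic T or natural killer cells, which the sort for CD4 and YFP would be expected to remove, moved with this. The list of 6 held Cd8a, Cd8b1, Nkg7 and Gzma as well as the natural killer genes Ncr1 and Klrb1c. Its summed level was 1157 CPM in KO and 211 CPM in WT effector barcodes, against 33.8 and 37.1 CPM in resting ones. At a finer clustering 10 WT and 13 KO barcodes formed a cluster of natural killer type. It had 340.9 CPM of Ncr1, 483 CPM of Klrd1 and no Foxp3 UMI, and Id2 was at 546 CPM and Tbx21 at 119 CPM in these barcodes. Without them the KO effector barcodes numbered 139, and the ratio was 2.16 (1.74 to 2.67) for Id2, 2.30 (1.46 to 3.50) for Tbx21, 1.44 (1.23 to 1.68) for Gata3 and 0.438 (0.314 to 0.597) for Rora. The summed level of 10 markers of group 2 innate lymphoid and mast cells was 86.2 CPM in KO and 25.1 CPM in WT effector barcodes, with 7 of 10 at 0 in KO, and its part in the Gata3 difference was not tested.

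When the KO level of each T-lineage cluster was weighted by that cluster's share of WT UMIs, the KO over WT ratio was 0.626 for Maf, 0.476 for Rora, 0.391 for Prdm1, 0.819 for Tox2 and 1.29 for Gata3. The other factors had 2.09 for Id2, 1.98 for Tbx21, 1.05 for Irf4, 0.972 for Bhlhe40 and 0.843 for Batf. Barcodes of natural killer type, high in Id2 and Tbx21, were kept in these levels. These weighted values lean on the 152 KO effector barcodes, which stand for a large share of WT UMIs, and in those barcodes Tox2 rests on 8 barcodes with a UMI and Prdm1 on 6 UMIs.

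Co-detection with Klrg1 or Cxcr3 was read in WT barcodes thinned to a common depth. At 1000 UMIs, 190 of 6436 T-lineage barcodes had a Klrg1 UMI, 326 a Cxcr3 UMI and 21 both. All of those with either receptor also had a T cell receptor or CD3 UMI before thinning. In erythroid-like barcodes 0.417% had a Klrg1 UMI and 0.417% a Cxcr3 UMI, against 2.95% and 5.07% of T-lineage barcodes.

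Gata3 differed with Klrg1 and not detectably with Cxcr3. It was found in 18.9% (13.6 to 25.3) of Klrg1-positive and 9.19% (8.48 to 9.93) of Klrg1-negative barcodes, a difference of 9.76 percentage points (4.77 to 15.96). In Cxcr3-positive barcodes it was 9.51% (6.55 to 13.2) and in Cxcr3-negative ones 9.48%, a difference of 0.0329 points (-2.80 to 3.77). Maf was found more often with both receptors, in 15.3% of Klrg1-positive against 7.30% of negative and 12.9% of Cxcr3-positive against 7.25% of negative barcodes. Rora did the same, at 9.47% against 4.92% and 8.28% against 4.88%, and Tox2 was found in 2.63% of Klrg1-positive and 0.961% of negative barcodes, a difference of 1.67 points (0.144 to 5.06).

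Tbx21, the factor known to switch on Cxcr3 in type I responses, was found in 1.84% (0.678 to 3.96) of Cxcr3-positive and 0.524% (0.358 to 0.739) of Cxcr3-negative barcodes, a difference of 1.32 points (0.300 to 3.44). Prdm1 was found in 2.15% and 0.606%, a difference of 1.54 points (0.415 to 3.77). Id2 was found in 5.21% and 2.98%, a difference of 2.24 points (0.249 to 5.24). These shares rest on 6, 7 and 17 Cxcr3-positive barcodes, and without barcodes of natural killer type the differences for Tbx21 and Id2 were 1.05 and 2.33 points. Irf4, Batf and Bhlhe40 did not differ beyond counting error with either receptor: every interval of the difference included 0.

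Because both receptors mark effector barcodes, the comparison was repeated inside the WT effector class at 2000 UMIs, which left 254 Klrg1-positive and 368 Cxcr3-positive of 2472 barcodes. With Klrg1, Maf was found in 27.6% against 19.1%, a difference of 8.44 points (3.04 to 14.5), Gata3 in 24.8% against 18.5%, a difference of 6.27 points (1.09 to 12.1), and Batf in 23.6% against 15.9%, a difference of 7.75 points (2.69 to 13.5). With Cxcr3, Id2 was found in 12.2% against 6.32%, a difference of 5.91 points (2.74 to 9.77), and Tbx21 in 4.08% against 1.62%, a difference of 2.46 points (0.748 to 5.04). The intervals for Maf (-2.52 to 6.51 points) and Gata3 (-5.14 to 3.43 points) with Cxcr3 included 0. The class still mixes clusters 3 and 9. In cluster 9 the WT levels of Cxcr3, Tbx21, Id2 and Prdm1 were 1.58-fold, 1.57-fold, 1.48-fold and 1.82-fold those of cluster 3, and Klrg1 was at a ratio of 0.845. The part of this mix in the co-detection differences was not tested.

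Several of these differences depended on depth. In the same class at 1000 UMIs, with 154 Klrg1-positive and 211 Cxcr3-positive barcodes of 2491, the Klrg1 difference was 3.47 points (-1.49 to 10.1) for Maf and 1.92 points (-2.16 to 7.83) for Batf, and the Cxcr3 difference for Id2 was 0.713 points (-1.46 to 4.42). Those clear of 0 at both depths were Gata3 with Klrg1, at 9.25 points (3.62 to 16.3), and Tbx21 with Cxcr3, at 1.92 points (0.314 to 5.16). Prdm1 with Cxcr3 was clear of 0 at 1000 UMIs, at 1.97 points (0.361 to 5.20), and not at 2000 UMIs.

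Barcodes of natural killer type, of which WT held 10, carry both Cxcr3 and Tbx21 UMIs, so the effector class was also read without them. The difference for Tbx21 with Cxcr3 was then 2.06 points (0.455 to 4.55) at 2000 UMIs, on 13 of 363 Cxcr3-positive barcodes. At 1000 UMIs it was 1.55 points (0.0829 to 4.69), on 5 of 206. Gata3 with Klrg1 differed by 6.30 points (1.09 to 12.2) and 9.34 points (3.68 to 16.4) at the same depths, and Id2 with Cxcr3 by 5.70 points (2.57 to 9.55) at 2000 UMIs.

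**Figure D4:**
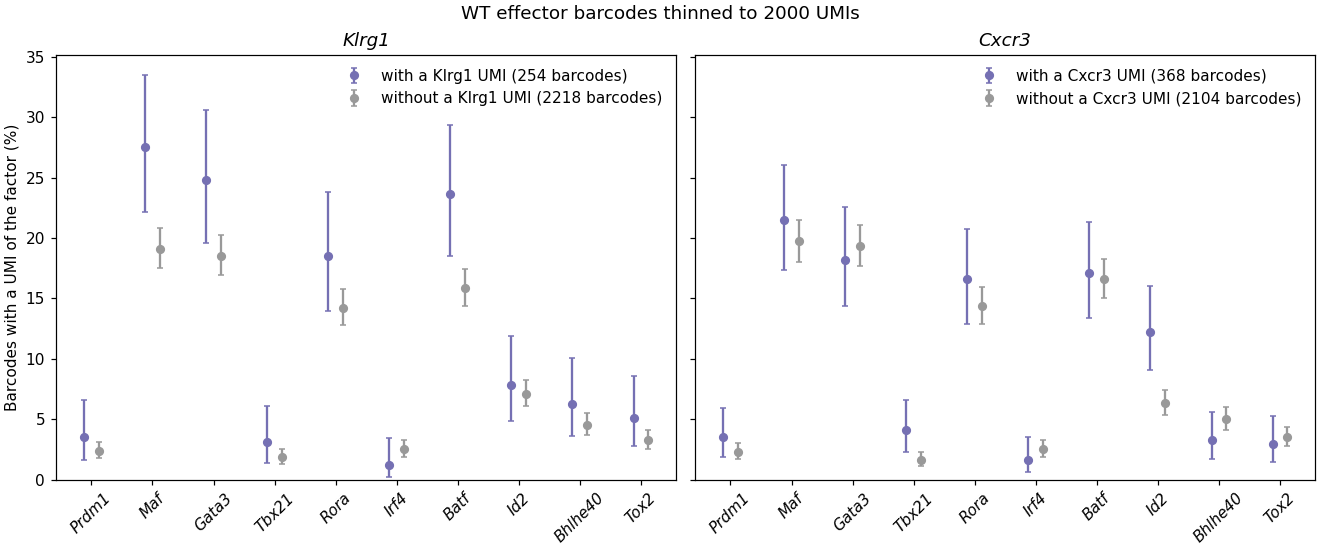
Share of WT effector barcodes, thinned to 2000 UMIs, with a UMI of each factor (y axis, percent, from 0), with (purple) and without (grey) a UMI of Klrg1 (left panel) or Cxcr3 (right panel); bars are exact Clopper-Pearson 95% intervals. At this depth Maf, Gata3 and Batf are higher with Klrg1, and Id2 and Tbx21 with Cxcr3; at 1000 UMIs only the Gata3 and Tbx21 differences among these stayed clear of 0.

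Barcodes with a single receptor were also compared at 2000 UMIs. With Klrg1 and no Cxcr3 UMI, 27.8% of 205 effector barcodes had Maf and 24.9% had Gata3, against 18.9% and 18.7% of 1899 barcodes with neither. With Cxcr3 and no Klrg1 UMI, 11.9% of 319 had Id2, against 6.32%. The 2 receptors themselves were found together in 49 effector barcodes, where 37.8 were expected from their separate shares, a ratio of 1.30 (0.959 to 1.71).

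Among the factors in the same 2472 barcodes, Prdm1 and Id2 occurred together in 13 barcodes, where 4.46 were expected if they were independent, a ratio of 2.91 (1.55 to 4.98), and 3.001 (1.60 to 5.13) without barcodes of natural killer type. Maf and Tox2 occurred together in 30, where 17.0 were expected, a ratio of 1.77 (1.19 to 2.52). Maf and Batf, both well detected, occurred together in 90 barcodes against 82.3 expected, a ratio of 1.09 (0.879 to 1.34). Irf4 and Id2 shared 1 barcode against 4.25 expected, and that interval, 0.00596 to 1.31, included 1. Every pair of the factors was read in this way, and only Prdm1 with Id2 and Maf with Tox2 had an interval clear of 1. With this many pairs some 95% intervals can miss 1 by chance, and they were not corrected for the number of pairs. Prdm1 and Id2 were both higher in cluster 9 than in cluster 3 of WT, 1.82-fold and 1.48-fold. Maf and Tox2 were both lower there, at ratios of 0.857 and 0.683. The part of this mix in the joint counts was not tested.

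In KO, 7 of 11933 T-lineage barcodes had a Klrg1 UMI at 1000 UMIs, too few to describe. A Cxcr3 UMI was found in 45, or 0.377%, against 0.413% of KO erythroid-like barcodes, and 15 of the 45 were effector barcodes. Among those 45, 4 had Maf, a share of 8.89% (2.48 to 21.2) against 1.62% of Cxcr3-negative barcodes, and 2 had Tbx21, 4.44% (0.543 to 15.1) against 0.320%. These 15 were 9.87% of the 152 KO effector barcodes, against 8.47% of WT effector barcodes.

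A list of 32 relatives and antagonists of the factors, 31 of them in the tables, was read in the same comparisons. In effector over resting WT barcodes 2 of 24 with at least 50 UMIs were at least 2-fold higher and 5 at least 2-fold lower, against 6.21% and 4.65% of all genes, and their median log2 ratio was -0.36. Nfil3, a bZIP repressor, was 3.63-fold (2.73 to 4.92) higher, and Bach2, which restrains effector programmes, was lower at a ratio of 0.329 (0.296 to 0.366). Jun and Gata1 were lower at 0.265 (0.254 to 0.277) and 0.298 (0.236 to 0.374). Irf8, 2.46-fold higher, and Fos and Lef1, at 0.354 and 0.4999, complete these counts and were named after their values were seen. Over all T-lineage barcodes 1 of 26 was at least 2-fold lower in KO, against 5.54% of all genes: Nfil3, with a ratio of 0.378 (0.328 to 0.433). The 3 that were at least 2-fold higher, against 2.48% of all genes, were Id1, at 2.93 (2.24 to 3.89), Gata1, at 2.70 (2.42 to 3.02), and Eomes, at 2.16 (1.60 to 2.95). Haemoglobin genes took 0.325% of KO and 0.0509% of WT T-lineage UMIs, and the part of this in the value of Gata1, an erythroid factor, was not tested. In resting barcodes 1 of 26 was at least 2-fold higher in KO, Irf8 at 2.37 (2.07 to 2.73), against 0.759% of all genes. Bcl6, the antagonist of Prdm1, was the 1 at least 2-fold lower, at 0.474 (0.342 to 0.657), against 2.76%. In cluster 1 alone, without the resting cluster led by interferon-stimulated genes, none of 25 was at least 2-fold higher.

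Of 38 genes that these factors control or accompany, 18 were at least 2-fold lower in KO over all T-lineage barcodes, against 5.54% of all genes. The median log2 ratio of the 38 was -0.97. The chemokine receptor gene Ccr7, a mark of resting T cells, was the 1 that was at least 2-fold higher, at 2.52, against 2.48% of all genes. The differences largest in size were those of Tigit, an inhibitory receptor, at 0.0449 (0.0191 to 0.0905), the cytokine Il10 at 0.0523 (0.0246 to 0.0984), and the calcium-binding S100a4 and S100a6 at 0.0617 and 0.0693. In resting barcodes 8 of 29 were at least 2-fold lower, against 2.76% of all genes. They were led by S100a4 at 0.160 (0.131 to 0.194) and S100a6 at 0.216 (0.199 to 0.234), and Ccr2 and the integrin gene Itgb1 followed at 0.234 and 0.275. Lag3 was the 1 at least 2-fold higher, at 2.06 (1.32 to 3.32), against 0.759% of all genes. Over all T-lineage barcodes S100a4 was at 363 CPM in WT and 22.4 CPM in KO, and S100a6 at 1208 and 83.7 CPM. How much of their resting differences free RNA accounts for was not tested. In effector over resting WT barcodes 19 of 35 were at least 2-fold higher, against 6.21% of all genes. Among them were S100a4 at 14.8, Il10 at 15.1 and Gzmb at 13.4. Of the 38 genes, 16 were in the cell type marker lists, 7 of them in the effector list, so the last count is partly built in. Effector barcodes were 33.3% of WT and 1.17% of KO T-lineage barcodes. In the count over all T-lineage barcodes, this share and the level per barcode cannot be told apart.

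Likeness of pattern was measured as Pearson correlation of log2(CPM + 10) over 17 library-by-cluster groups of at least 100 barcodes, among 10247 genes. These groups share libraries and depth, and the values are descriptions. Maf was most like Tmem154 (0.96) and Nav2 (0.95), Tox2 most like the integrin gene Itgae (0.93) and Cxcr6 (0.92), and Rora most like Ubash3b (0.94) and Gprin3 (0.93). Irf4 was most like Pdcd1lg2 (0.89) and Samsn1 (0.88), Bhlhe40 most like Ndfip1 (0.89) and Tnfsf11 (0.88), and Batf most like Tmem126a (0.88) and Eif4e2 (0.87). Prdm1 was most like Bspry (0.88) and Nfil3 (0.87), Tbx21 most like Zbtb32 (0.89) and Tmem126a (0.87), Id2 most like Dpm2 (0.93) and Milr1 (0.88), and Gata3 most like Capn10 (0.88) and Cib1 (0.85).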

How the data were processed

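The authors sorted CD4+YFP+7AAD- cells, made 10x Genomics libraries and counted UMIs with Cell Ranger 5.0.1 on mm10, per the submitters' processing notes. The deposited values are raw counts of UMIs per gene and barcode, used unchanged. The annotation version is not given in the sources used here. Gene positions are from GENCODE vM21 (GRCm38).

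The 10 genes and both gene lists were chosen with earlier results of these data known. Kept barcodes were scaled, log-transformed and reduced to 30 principal components of 2000 variable genes (scanpy 1.11.5), without the 10 factors, Klrg1 and Cxcr3, and clustered over 20 neighbours by the Leiden method (igraph 0.11.9, resolution 0.8). A cluster was T-lineage if its T cell receptor and CD3 level reached 50% of the average, and was named if markers were among its 10 leading genes and at least 66% of the list was raised 1.5-fold. No doublets were removed in the main set. CPM is summed UMIs per 1000000 UMIs. Intervals were at 95%: exact Poisson for CPM, conditional binomial for ratios, Clopper-Pearson for shares and the Newcombe method for a difference of shares. Ratios needed 50 UMIs over both sums. For shares, barcodes under the thinning depth were left out, 1136 WT and 1127 KO at 1000 UMIs and 1679 WT and 5312 KO at 2000 UMIs. Named genes were all 10 factors, Klrg1, Cxcr3, the 4 genes of each list with the largest log2 ratio by size and the 2 genes most like each factor; 1 gene that this rule names is not reported here. Routines were tested on simulated data. Alternatives changed the mitochondrial, doublet, gene and depth filters, the library total, the averaging and the clustering resolution.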

Additional observations from a re-analysis of the deposited data

Results flagged for a closer look

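The KO over WT ratio of 3 factors lay on opposite sides of 1 in different states, and the difference between states was not tested. Irf4 had a ratio of 1.42 in resting barcodes and 0.790 in activated cluster 4, but in resting cluster 1 alone it was 1.27 (0.941 to 1.73). Bhlhe40 had a ratio of 1.31 in resting barcodes, 0.604 in activated cluster 4 and 0.542 in S phase-like barcodes. Tbx21 had a ratio of 0.570 in S phase-like and 3.13 in effector barcodes, the latter 2.30 without barcodes of natural killer type. As given above, the cluster 4 and the S phase-like barcodes of the 2 libraries differed in effector or granzyme genes.

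In barcodes outside the T lineage, Id2 was at 88.0 CPM in WT and 60.3 CPM in KO neutrophil and myeloid progenitor-like barcodes, above its T-lineage levels of 34.95 and 30.3 CPM. Irf4 was at 46.4 CPM (21.2 to 88.0) in the 44 B lineage-like barcodes of WT, on 9 UMIs, above its T-lineage level of 16.3 CPM.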

How the results depend on the processing

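Over all T-lineage barcodes, Tox2, Maf, Prdm1 and Rora were at least 2-fold lower in KO under each of the 7 alternatives run. In resting barcodes Maf was at least 2-fold lower under each of 8 alternatives, and with up to 10% mitochondrial UMIs 2 factors were, Maf and Tox2, since Tox2 then reached 50 UMIs. In effector over resting WT barcodes the count of factors at least 2-fold higher was 4 when barcodes were thinned to 1000 UMIs, where 7 factors reached 50 UMIs, and 6 at resolution 0.5 and with the mean of single-barcode CPM, in both of which Irf4 and Batf were under 2-fold. At resolution 1.2 the count stayed 8, but Id2, at a log2 ratio of 1.05, took the place of Irf4, at 0.57, and Prdm1 and Tbx21 moved from 2.13 and 2.43 to 3.30 and 3.26. The median difference in share with a factor UMI between receptor-positive and receptor-negative barcodes was 1.68 points for Klrg1 and 1.23 points for Cxcr3. With no thinning, where depth was not held equal between barcodes, it was 14.5 and 16.7 points. Of 332 values of single factors under an alternative, 281 stayed inside the interval of the main value and none that was clear of no difference changed sign. The set without natural killer-type barcodes and the set of resting cluster 1 alone were chosen after seeing the data. No paired analysis was possible because there was 1 library per genotype, and no replicate could be left out. The resting log2 ratio of Bhlhe40, 0.39, was 0.04 with up to 10% mitochondrial UMIs. Depth limits Prdm1, Tbx21, Irf4, Bhlhe40 and Tox2 most, which had under 100 UMIs each in WT resting barcodes.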
